A study of Mus musculus with 30 samples.

Results

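In wild-type B cells, 564 of the 1000 peaks of the histone acetyltransferase CBP lay away from gene ends. They are the rows of the CBP peak list on chromosomes 1 to 19 and X that were more than 1 kb from every end of a protein-coding gene, by RefSeq gene spans on mm10 (assembly GRCm38.p6). The same chromosomes held 419 further CBP peaks within 1 kb of a gene end, and 17 peaks lay elsewhere. The members nearest the limit were 1002, 1002 and 1004 bp from an end, and the farthest gene-end peaks were 994, 977 and 939 bp away. Positions alone chose the members, so the acetylation lists were not used in the choice. The CBP positions come from wild-type B cells, a group that is itself compared, so sites bound by CBP only in other cells are not among the members. What part this choice has in the differences between groups was not tested.

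The lists come from chromatin immunoprecipitation with sequencing of C57BL/6 mouse cells, all from mice with a floxed CBP allele. Crebbp-null lymphoproliferative disease (LPD) was bulk tissue, taken as unsorted splenocytes of CBPfl/fl:Mx-Cre+ mice, with 2 lists each for H3K27ac, H3K18ac and H3K56ac. B220+ B cells were sorted from the spleen of CBPfl/fl:Mx-Cre- mice, called wild type, with 2 lists for each of these 3 histone marks and the only CBP list. Lin- IL7ra+ lymphoid progenitors were sorted from bone marrow, with 1 H3K27ac list from Crebbp-/- mice (CBPfl/fl:Mx-Cre+) and 1 from wild-type mice (CBPfl/fl:Mx-Cre-). The Mx promoter drives Cre after an interferon signal in many cell types, so deletion is not limited to lymphoid cells. Genotype, disease and sorting all separate LPD from B cells and cannot be told apart here. Nothing in the labels ties the replicates to separate animals, so the spread between them may be technical. Age is not in the labels. A smaller share of cells with a mark and less of the mark per cell cannot be told apart in bulk lists.

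CBP, encoded by Crebbp, and its relative p300, encoded by Ep300, acetylate histone H3 at lysines 27, 18 and 56, among other residues. They are recruited by transcription factors such as CREB to promoters and to enhancers, which are regulatory elements that often lie far from the genes they act on. H3K27ac marks active promoters and enhancers. CREBBP is often mutated in human lymphoma, and mature B cells depend on genes such as those of MHC class II, which presents antigen to T cells.

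The sequences shown are those of annotated start windows that these peaks overlap, in part or whole, and of tRNA genes under them. RefSeq start windows run from 250 bases before to 50 bases after a gene's start, mostly of non-coding genes or of internal starts in this set. A total of 36 peaks (6.38%) overlapped 45 such windows, whereas 249 of the 419 gene-end peaks (59.4%) overlapped one. Of the 36, 20 had acetylation in every list and 3 in 2 lists or fewer. The 250 bases before the start (RefSeq, GRCm38.p6) are given for 4 genes, 5′ to 3′ on the gene's strand. Zbtb11 (chr16:55973554-55973803, plus strand) was the only window with a full CRE, the CREB site TGACGTCA. Arrdc3 (chr13:80885845-80886094, plus strand) had the only window wholly inside a CBP peak, which was 548 bp wide. Malat1 (chr19:5802673-5802922, minus strand) belongs to a cluster of 4 peaks, and H2-DMb2 (chr17:34144999-34145248, plus strand) to the MHC class II genes. The Malat1 peak overlapped only 21 bases of its window, all after the start, so none of the Malat1 bases shown lies under it, and 144 bases of the H2-DMb2 window lay under its peak. Capitals mark TGACG, the CRE core, on either strand (CGTCA on the other).
Zbtb11: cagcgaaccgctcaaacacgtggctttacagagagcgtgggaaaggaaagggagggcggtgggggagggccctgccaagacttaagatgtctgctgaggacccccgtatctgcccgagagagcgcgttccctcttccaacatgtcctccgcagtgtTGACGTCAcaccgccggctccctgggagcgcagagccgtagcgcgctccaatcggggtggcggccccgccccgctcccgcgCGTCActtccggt
Arrdc3: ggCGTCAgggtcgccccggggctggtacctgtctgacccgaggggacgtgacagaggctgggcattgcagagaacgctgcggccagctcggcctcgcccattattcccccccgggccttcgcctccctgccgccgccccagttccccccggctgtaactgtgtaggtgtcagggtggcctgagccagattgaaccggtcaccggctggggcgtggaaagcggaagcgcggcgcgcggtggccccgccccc
Malat1: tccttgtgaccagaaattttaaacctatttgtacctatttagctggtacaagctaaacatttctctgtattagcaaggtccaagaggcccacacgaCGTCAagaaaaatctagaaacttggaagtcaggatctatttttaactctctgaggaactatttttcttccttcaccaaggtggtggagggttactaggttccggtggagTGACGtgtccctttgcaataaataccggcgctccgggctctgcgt
H2-DMb2: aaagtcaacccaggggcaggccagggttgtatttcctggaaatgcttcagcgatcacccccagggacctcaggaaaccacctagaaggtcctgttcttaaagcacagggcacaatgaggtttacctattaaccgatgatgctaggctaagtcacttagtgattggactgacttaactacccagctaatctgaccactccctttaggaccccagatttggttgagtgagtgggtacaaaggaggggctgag
The first 3 of these peaks had acetylation in all 14 lists, and the H2-DMb2 peak in 2.

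TGACG occurred on either strand in 20 of the 45 windows (44.4%), at 16 of the 36 peaks, against 20.9% of all 32585 windows of these chromosomes. The full CRE, which contains TGACG, was in 1 of the 45 (2.22%) and in 1.80% of all windows. The ETS core GGAAGT was in 11 (24.4%) and 23.9% of all windows, and the E-box CAGGTG in 11 (24.4%) and 20.3%. The RUNX site TGTGGT was in 12 (26.7%) and 16.6%, the E-box CAGCTG in 6 (13.3%) and 16.4%, the AP-1 site TGANTCA in 3 (6.67%) and 7.85%, and the octamer ATTTGCAT in 1 (2.22%) and 1.75%. An IRF-type repeat and an EBF site were in 0 of the 45, against 3.45 and 0.908% of all windows. Both strands were searched, and these are letter matches in a small set of start windows with no test, some of them outside the stretch that the CBP peak covers.

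At 35 of the 564 peaks (6.21%) the peak overlapped a tRNA gene, which is transcribed by RNA polymerase III from promoter boxes inside the gene. Together they lay on 40 of the 408 tRNA genes of the annotation. The share was 3.58% for gene-end CBP peaks (15 of 419) and 0.122% for H3K27ac regions of the B cell lists away from gene ends and without a CBP peak (24 of 19677). The sequence of 2 of these tRNA genes lies whole in a start window, and both are given here with the B box, one of those internal promoter boxes, in capitals. The strand is the one on which the box matched: plus for n-TRtcg5 (chr7:79466419-79466491), an arginine tRNA gene, and minus for n-TVcac9 (chr13:23446142-23446214), a valine tRNA gene.
n-TRtcg5: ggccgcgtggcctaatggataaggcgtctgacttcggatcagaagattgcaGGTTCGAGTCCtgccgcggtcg
n-TVcac9: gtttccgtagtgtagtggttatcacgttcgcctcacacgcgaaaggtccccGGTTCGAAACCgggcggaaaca
The CBP peaks over them were 213 and 212 bp wide, and each had acetylation in 5 lists. The box was in 2 of the 45 windows (4.44%) and in 0.123% of all windows.

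Away from gene ends the CBP peaks were narrow, with a median width of 259 bp (quartiles 213.75 and 328.25) and a summed length of 171.66 kb. Gene-end CBP peaks had a median of 261 bp. The narrowest possible width in the list, exactly 200 bp, was held by 88 of the 564, while 36 were wider than 500 bp and 4 wider than 1000 bp. The distance to the nearest gene end had a median of 14.03 kb (quartiles 4.67 and 38.1 kb) and a maximum of 2217 kb. It was 1 to 5 kb for 146 peaks, 5 to 10 kb for 88, 10 to 50 kb for 226 and over 50 kb for 104.

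A total of 276 peaks (48.9%) lay in or within 1 kb of the span of a protein-coding gene, 228 (40.4%) were given to the nearest gene, with an end at most 50 kb away, and 60 (10.6%) had no gene that near. These assignments name a neighbour and do not show that a peak acts on it. They gave 415 genes, 1.92% of the 21631 protein-coding genes, of which 64 had at least 2 peaks and 15 at least 3. Of the 415 genes, 42 also had a CBP peak at an end, and 460 genes had one there in all. Long non-coding RNA genes lay under 99 peaks (17.6%), against 10.02% of gene-end CBP peaks and 12.6% of H3K27ac regions away from gene ends without CBP. Immunoglobulin loci held 6 peaks, snRNA genes 5, and 97 peaks were within 1 kb of an end of some annotated gene once non-coding genes were included.

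In fixed lists of genes, 7 of 10 MHC class II genes, 9 of 20 B cell transcription factor genes, 6 of 18 B cell surface and receptor signalling genes and 4 of 13 genes for cytokine, chemokine and homing receptors had at least 1 such peak, where 1.92% of all genes did. The count was 1 of 10 for the NF-kB pathway (Traf3), 1 of 11 for the cAMP and CREB pathway (Crem), 1 of 15 for lymphoma oncogenes and suppressors (Mcl1) and 0 of 15 for AP-1 and immediate early genes, of which 5 had CBP at a gene end (Fosb, Jun, Junb, Jund and Dusp2). No such peak was assigned to any of 10 germinal centre and plasma cell genes, 14 T and NK cell markers, 12 myeloid, 10 erythroid and megakaryocyte, 12 stem and progenitor or 10 non-blood genes. At a share of 1.92% a list of any of these sizes would hold less than 1 such gene. These counts of 0, and that of the AP-1 and immediate early genes, are thus near the background. Outside the lists, Ifng, a cytokine gene of T and NK cells, and Tyrobp, an adaptor gene of myeloid and NK cells, each had 1 such peak, and both were picked after their values were seen. Neither Crebbp nor Ep300 had one. Longer genes and genes in sparse surroundings collect more peaks, and no test was made of these counts.

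**Figure D1:**
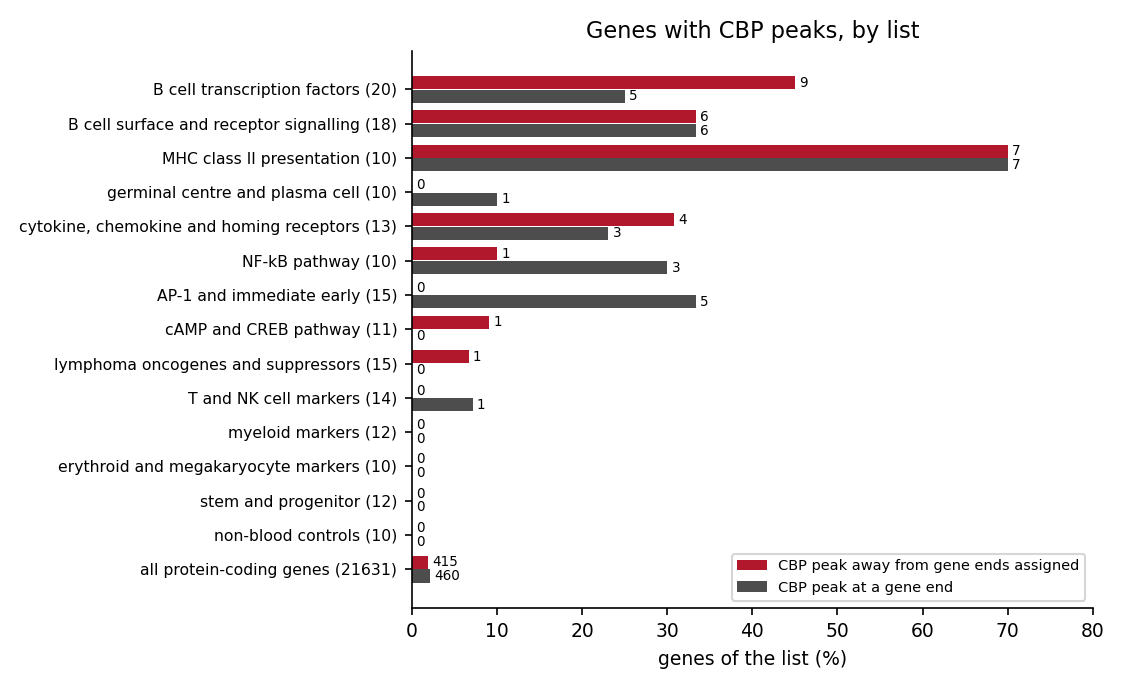
Bars give the percentage of genes in each fixed list with an assigned CBP peak away from gene ends (red) or a CBP peak at a gene end (grey), with the number of genes at each bar and the list size in brackets. MHC class II genes reach 70% for both, while AP-1 and immediate early genes reach 33.3% at gene ends and 0 away from them. In lists this small a count of 0 is near the share of all genes, 1.92% away from gene ends.

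B cell marker genes carried H3K27ac in both LPD and B cells. H3K27ac lay on 20 and 20 of 20 B cell transcription factor genes and on 18 and 17 of 18 B cell surface genes in the LPD lists, with Cr2 missing in LPD replicate 2, and on all of both lists of genes in B cells. Myeloid markers had it on 1 and 0 of 12 genes in LPD and on none in B cells, and T and NK markers on 2 and 2 of 14 in LPD and on 3 and 3 in B cells. Cd3e, Cd3g, Cd4 and Cd8a had no H3K27ac peak in any of these 4 lists. Erythroid and megakaryocyte markers had it on 5 and 3 of 10 genes in LPD and on 2 and 2 in B cells, with the globin genes Hba-a1 and Hbb-bs at 0 throughout. What part other cells of the unsorted tissue had in the LPD lists was not tested. Of stem and progenitor genes, H3K27ac lay on 4 of 12 in Crebbp-null and 5 of 12 in wild-type progenitors. Flt3, Il7r, Dntt and Rag2 had it in both progenitor lists and Meis1 in the wild-type list alone, while Rag1 and Kit were among those without it. Read depth is unknown, because the lists give positions only. They held 27581 to 39529 peaks in LPD, 18763 to 30523 in B cells, 13125 in Crebbp-null progenitors and 17124 in wild-type progenitors.

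H3K27ac lay on fewer of the CBP peaks in LPD than in B cells, with LPD libraries far apart from each other. A list counts as present where at least 1 bp of one of its peaks overlaps the CBP peak. The shares were 76.4 and 61.3% in LPD and 86.2 and 85.3% in B cells, so both LPD lists were below both B cell lists. They averaged 68.9 ± 10.7% in LPD and 85.7 ± 0.627% in B cells (SD, n = 2 each), a difference of -16.8 percentage points. It was -9.31 points without LPD replicate 2 and -24.4 points without LPD replicate 1. The exact two-sided permutation test gave p = 0.33, which is the smallest that 2 against 2 lists allow. At gene-end CBP peaks the shares were 93.1 and 86.6% in LPD and 95.2 and 93.8% in B cells, a difference of -4.65 points (exact permutation p = 0.33). With both kinds of peak set against each other within each list, the distal minus gene-end difference was -16.7 and -25.3 points in LPD and -9.06 and -8.51 points in B cells.

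H3K18ac and H3K56ac did not show the same order. H3K18ac was present at 77.8 and 64.2% in LPD and 71.6 and 72.5% in B cells, so the LPD lists lay on either side of the B cell lists (difference -1.06 points, exact permutation p = 1). H3K56ac was present at 58.2 and 59.9% in LPD and 55.5 and 53.01% in B cells, higher in both LPD lists (4.79 points, exact permutation p = 0.33). When each list of H3K56ac was cut to the same number of peaks, the difference was -0.44 points. The H3K18ac difference was 5.76 points without LPD replicate 2 and -7.89 points without LPD replicate 1, and LPD replicate 2 was the lower LPD list for H3K27ac as well.

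The summed length of acetylation touching the peaks was lower in both LPD lists for H3K27ac and higher in both for H3K56ac, while for H3K18ac the length and the share differed in opposite directions. Peaks of the H3K27ac lists that touched a member summed to 947 and 578 kb in LPD and to 1475 and 1445 kb in B cells, a difference of -698 kb (exact permutation p = 0.33). For H3K18ac the sums were 1002 and 650.4 kb in LPD and 656 and 679 kb in B cells (159 kb, p = 1 by the same exact test), and the difference was -16.8 kb without LPD replicate 1 and 335 kb without LPD replicate 2. For H3K56ac they were 449.7 and 490.2 kb in LPD and 307 and 288 kb in B cells, which do not overlap (172 kb, exact permutation p = 0.33). The median H3K27ac peak on a member was 1.87 and 1.42 kb long in LPD and 2.78 and 2.71 kb in B cells. Over the whole genome the H3K27ac lists covered 26.2 and 18.2 Mb in LPD and 27.1 and 26.4 Mb in B cells, and the part of list length in the differences was not tested.

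**Figure D2:**
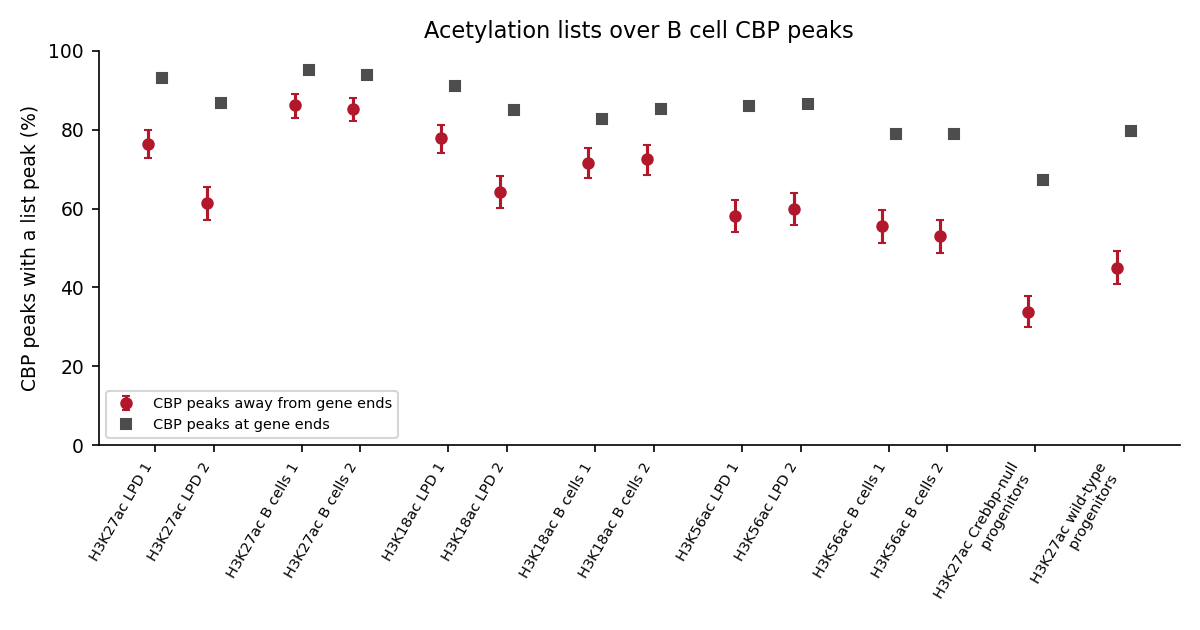
Each column is 1 acetylation list, and the y axis gives the percentage of CBP peaks that overlap a peak of that list: red points for the 564 peaks away from gene ends with exact 95% binomial intervals (counting error only), grey squares for the 419 at gene ends. All 14 red points lie below their grey squares, and the progenitor lists are lowest at 33.9 and 45.04%.

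Acetylation was more often kept than lost at these peaks. A mark was called lost at a peak that was in both B cell lists but in neither LPD list, gained where only the LPD lists had it, both of them, and kept where it was in all 4. H3K27ac was kept at 339 peaks, lost at 62, gained at 1 and in no list at 60. H3K18ac was kept at 336, lost at 25 and gained at 17, and H3K56ac was kept at 245, lost at 20 and gained at 33. Over all merged H3K27ac regions away from gene ends, 21.9% were kept, 20.1% lost and 14.1% gained. The same shares were 18.5, 4.44 and 29.7% for H3K18ac and 19.7, 5.58 and 29.8% for H3K56ac. Single lists move these counts. Without LPD replicate 1, H3K27ac was lost at 134 peaks and H3K18ac at 54, and without LPD replicate 2 H3K27ac was gained at 12 and H3K18ac at 51. H3K56ac was gained at 54 peaks without B cells replicate 1 and at 50 without B cells replicate 2, where it was lost at 35. H3K27ac was gained at 2 and 4 peaks without B cells replicates 1 and 2. A loss here means no overlap in LPD, and acetylation can lie close by. With list peaks within 1 kb of the CBP peak counted, H3K27ac was lost at 44 peaks and kept at 420.

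The share of B cell acetylation that was absent from LPD was lower at the CBP peaks than over all regions away from gene ends. Of peaks with H3K27ac in both B cell lists, 62 of 475 (13.1%) had it in neither LPD list, against 41.3% of merged regions in both B cell lists. The shares were 6.41% (25 of 390) against 17.4% for H3K18ac and 7.27% (20 of 275) against 20.3% for H3K56ac. At gene-end CBP peaks they were 1.53, 0.585 and 1.24%. With LPD replicate 1 left out, the share for H3K27ac was 28.2%, against 54.1% of regions, and for H3K18ac 13.8%, against 26.6%. B cell H3K27ac regions away from gene ends with a CBP peak had a median width of 2291.5 bp (n = 442), and those without 504 bp (n = 19677). What part that width has in the shares was not tested. Within the set, the 62 peaks that lost H3K27ac had a median B cell H3K27ac peak length of 1.17 kb, and the 339 that kept it 3.45 kb.

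**Figure D3:**
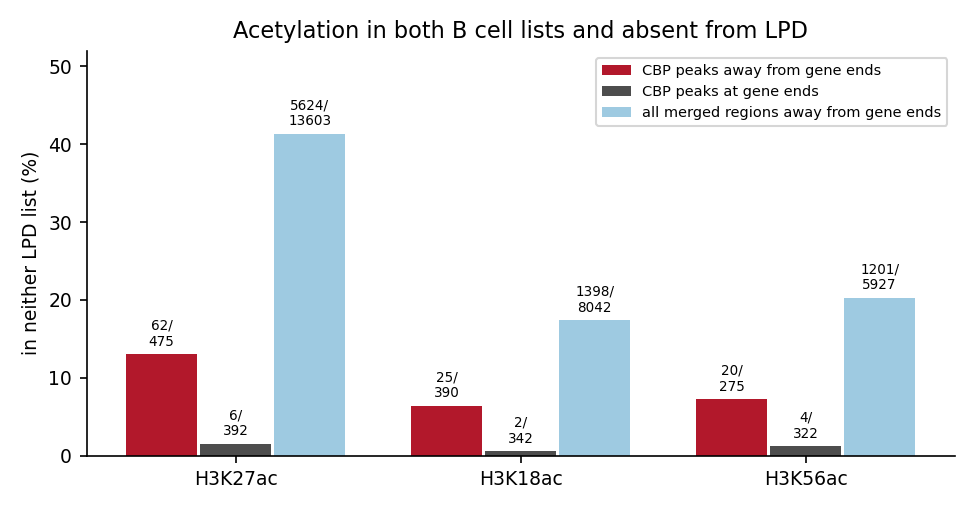
The y axis gives, of CBP peaks or regions with a mark in both B cell lists, the percentage found in neither LPD list, with the counts over each bar. The light bars of all regions away from gene ends (41.3, 17.4 and 20.3%) are highest for each mark, and those of gene-end CBP peaks are lowest.

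In all, 76 peaks were lost in at least 1 mark, 23 of them in 2 marks and 4 in 3, and 43 were gained in at least 1 mark, 8 of them in 2 and 0 in 3. No peak was lost in 1 mark and gained in another. The 4 peaks lost in all 3 marks lay in Lpgat1, an acyltransferase gene of lipid synthesis, in Fyn, a Src-family kinase gene, in Mypn, which encodes the sarcomere protein myopalladin, and on chromosome 17 with no gene within 50 kb. The Lpgat1 peak (chromosome 1, 191756612 to 191756841) met no acetylation peak in LPD. In B cells it met H3K27ac peaks of 2.44 and 2.44 kb, H3K18ac peaks of 2.14 and 2.23 kb and H3K56ac peaks of 0.779 and 0.828 kb. At Fyn (chromosome 10, 39402676 to 39402975) no LPD list had a peak, and the B cell lists had 2.12 and 1.96 kb of H3K27ac, 0.634 and 0.756 kb of H3K18ac and 0.467 and 0.422 kb of H3K56ac.

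Irf8 is a transcription factor gene of B cell and myeloid development. Its CBP peak (chromosome 8, 120725295 to 120725523) lay 10.8 kb below the lower-coordinate end of the gene and had no acetylation in any LPD list. In B cells it had H3K27ac peaks of 2.77 and 2.97 kb and H3K18ac peaks of 1.92 and 1.80 kb, and an H3K56ac peak of 0.672 kb in replicate 2 alone. Peaks near Vipr1, a neuropeptide receptor gene, and Ccl3, a chemokine gene, lost H3K27ac and H3K56ac and kept H3K18ac. At Vipr1, H3K18ac was 0.897 and 0.378 kb in LPD and 3.04 and 3.44 kb in B cells. At Ccl3 it was 1.12 and 0.409 kb in LPD and 2.45 and 2.05 kb in B cells. The remaining 3 of the first 10 had no protein-coding gene within 50 kb.

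No peak gained all 3 marks, and in the leading gains H3K27ac was already there in B cells. Of the first 10, 5 gained H3K18ac and H3K56ac while H3K27ac was kept, at H2-Aa, Sema4b, Rpia, Neat1 (nearest coding gene Frmd8) and H2-T24. A gain here means no overlap in B cells, and both marks can lie close by. At Neat1 the CBP peak ended 17999 bp from the lower-coordinate end of the span. In B cells the nearest H3K18ac peaks began at 18011 and 19107 bp and the nearest H3K56ac peaks at 19077 and 18630 bp. H2-Aa also had both marks in B cells short of its CBP peak. Such distances are not given here for Sema4b, Rpia and H2-T24. At Sema4b, a semaphorin gene (chromosome 7, 80209770 to 80210039), H3K18ac peaks were 6.63 and 6.10 kb and H3K56ac peaks 5.60 and 4.89 kb in LPD, with none in B cells, and H3K27ac was 6.35 and 6.00 kb in LPD and 3.02 and 2.34 kb in B cells. At the peak nearest Rpia, which lies by the immunoglobulin kappa genes, H3K18ac was 5.08 and 4.72 kb and H3K56ac 4.78 and 4.65 kb in LPD, with none in B cells. Zfp36l1, an RNA-binding protein gene, and Fcgr4, an Fc receptor gene, gained the same pair of marks with H3K27ac split between lists. Mtfr2, a gene linked to mitochondrial fission, held the only gain of H3K27ac, with 0.459 and 0.293 kb in LPD and none in B cells. Tmem163, and a peak in the Igh locus on chromosome 12, gained H3K56ac alone.

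In progenitors the same B cell CBP positions carried H3K27ac at well under the share of any B cell H3K27ac list. They were in the list of Crebbp-null progenitors at 191 of 564 peaks (33.9%, exact 95% interval 30.0 to 37.9) and in that of wild-type progenitors at 254 (45.04%, 40.9 to 49.2). With 1 list per genotype there is no test, and the intervals cover counting error only. Crebbp-null progenitors alone had it at 1 peak, both at 190, wild-type progenitors alone at 64 and neither at 309. Of the peaks in the wild-type list, 25.2% were missing from the null list, against 46.4% of all merged regions away from gene ends and 15.6% of gene-end CBP peaks. Peaks that lost H3K27ac in LPD were mostly unmarked in progenitors, at 4 of 62 in the null list and 9 of 62 in the wild-type list. Peaks that kept it had it at 180 and 230 of 339.

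Most peaks with H3K56ac in both lists had both other marks too. In LPD, H3K27ac was in both lists at 344 peaks, H3K18ac at 362, H3K56ac at 316 and all 3 marks at 294. In B cells the counts were 475, 390, 275 and 271. H3K56ac was in both lists without H3K27ac in either at 0 peaks in LPD and at 0 in B cells. H3K18ac was in both lists without H3K27ac in either at 5 peaks in LPD and at 4 in B cells. A set of 235 peaks had all 3 marks in all LPD and B cell lists. Of these, 155 were in both progenitor lists as well, and 43 in neither.

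Those 155 peaks (27.5%) had acetylation in all 14 lists, against 59.4% of gene-end CBP peaks. The median was 11 lists per peak, and 14 at gene ends. The widest of the 155 was a 1287 bp peak on a lncRNA gene whose nearest coding gene is Ccr1, a chemokine receptor gene (chromosome 9, 123928084 to 123929370). Its H3K27ac peaks were 2.30 and 2.15 kb in LPD and 3.79 and 3.82 kb in B cells, and 2.07 kb in Crebbp-null and 2.1 kb in wild-type progenitors. The next widest lay in Tex14, near Zfp692 on 2 tRNA genes, on the lncRNA gene 5031425E22Rik near Kmt2e, a histone methyltransferase-family gene, near H2-Aa, on the lncRNA gene Lncpint, on Neat1, in Tnfrsf1b, a TNF receptor gene, in Ubac2 and near Map3k1, a kinase gene. Crem, a transcription factor gene of the cAMP pathway, and Mcl1, a survival factor gene of the BCL2 family, also had peaks in all 14 lists.

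By distance the share in every list was 31.5% at 1 to 5 kb, 36.4% at 5 to 10 kb, 26.1% at 10 to 50 kb and 17.3% beyond 50 kb, and the share in no list was 11.6, 5.68, 6.64 and 17.3%. At tRNA genes 4 of 35 peaks were in every list and 4 in none, with a median of 7 lists, against 11 for the other members. The 13 such peaks on chromosome 13 had a median of 3 lists and at most 9, and 3 were in none, while the other 22 had a median of 9. On lncRNA genes without a tRNA gene, 35 of 93 peaks (37.6%) were in every list.

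**Figure D4:**
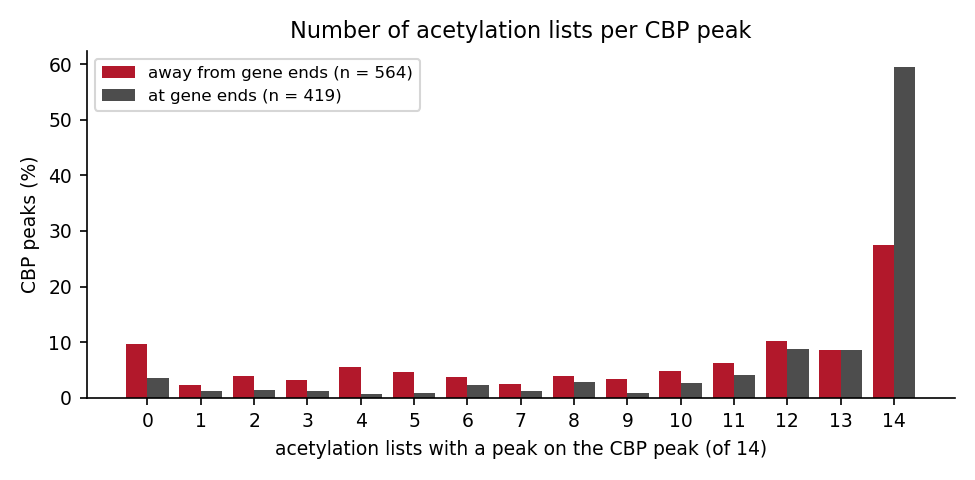
Bars give the percentage of CBP peaks (y axis) by the number of the 14 acetylation lists with a peak on them (x axis), in red away from gene ends and in grey at gene ends. Both have their highest bar at 14 lists (27.5 and 59.4%), and the red bars have a second, smaller maximum at 0 lists (9.75%, against 3.58%).

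In no acetylation list at all were 55 peaks (9.75%), against 15 of 419 gene-end CBP peaks (3.58%). They were a little narrower than the others, with a median of 227 bp against 262 bp, and 19 of the 55 were exactly 200 bp. Yet 11 were wider than 400 bp, and 3 of the 10 widest members were among them. The nearest acetylation peak of any list was within 1 kb of 16 of them, 1 to 10 kb from 16 and farther from 23, with a median of 3.62 kb. Of the 55, 24 lay in or within 1 kb of a coding gene span, 11 had no gene within 50 kb, 4 lay on tRNA genes and 12 in clusters.

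The widest peaks with no acetylation lay in Tcof1 (1599, 879 and 409 bp), past the 3′ end of Malat1 (910 bp), in Dock2 (646 bp), a gene for an activator of the GTPase Rac in lymphocytes, and in Cdk8 (610 bp), a kinase gene of the Mediator complex. Further ones lay near Lrp2bp (578 bp), on the lncRNA gene Gm34259 (456 bp), near H3f3b (417 bp), a gene for histone H3.3, and on the valine tRNA gene n-TVcac6 near Cfap126 (412 bp). At Dock2 the nearest acetylation was 44.1 kb away and at Cdk8 28.8 kb, while at Malat1 it was 1.49 kb. Ms4a1, the gene of the B cell antigen CD20, had its 1 peak, 5.20 kb from the gene, in no acetylation list.

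Clusters, defined as members at most 12500 bp from their neighbour, took in 127 of the 564 peaks (22.5%) in 47 clusters. There were 31 of 2 peaks, 9 of 3, 5 of 4, 1 of 7 and 1 of 11, with a median span of 5.20 kb, and 7 held a tRNA gene. The largest ran over Cd74 and the lower-coordinate end of the Tcof1 span (chromosome 18, 60805055 to 60818813). Cd74, which encodes the invariant chain of MHC class II, had 6 of its 11 peaks, in 3 to 13 lists, and Tcof1, a gene of ribosome biogenesis, had 5, in none. The widest of the 6, at 1325 bp, met H3K27ac peaks of 5.64 and 4.66 kb in LPD and 5.64 and 5.46 kb in B cells, and no H3K27ac in either progenitor list. H3K56ac there was 2.45 and 4.46 kb in LPD and 4.35 and 3.05 kb in B cells, so the lists overlap.

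The next cluster, of 7 peaks, ran over H2-Aa and the stretch to H2-Eb1, genes of MHC class II chains (chromosome 17, 34284877 to 34301726). Its peaks were in 3 to 14 lists, and 1 was in all 14, near H2-Aa, with H3K27ac peaks of 19.99 and 10.5 kb in LPD and 23.4 and 24.999 kb in B cells, 0.208 kb in Crebbp-null and 0.735 kb in wild-type progenitors. The H2-Aa peak at 34285184, 2440 to 2640 bp after the gene's start, gained H3K18ac, with 25.4 and 2.58 kb in LPD. No B cell H3K18ac peak reached it, but in both B cell lists H3K18ac covered the gene up to 1797 bp after the start. LPD replicate 2 reached 2542 bp, so the call marks a longer reach of H3K18ac and not its first appearance at H2-Aa. List peaks as long as 25.4 kb cover several CBP peaks at once, so the 7 are not independent. Among the other MHC class II genes, H2-Oa had a peak in all 14 lists, Ciita, the class II transactivator gene, had 1 in 11, H2-Ab1 had 2 in 11 and 12, and H2-DMb2 lost H3K27ac (none in LPD, 2.25 and 0.651 kb in B cells).

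The clusters of 4 peaks that follow in span were 2 groups of tRNA genes on chromosome 13, near Abt1 and Btn1a1 with 0 to 8 lists and near H4c8, a histone H4 gene, with 0 to 4, and the immunoglobulin heavy chain locus on chromosome 12 with 4 to 12. Malat1 and Neat1, lncRNA genes transcribed at high levels in many cells, also had 4 peaks each. From the start of Malat1 to past its end the peaks were in 14, 14, 1 and 0 lists. The 2 peaks in 14 lists lay 29 to 288 bp and 1162 to 1446 bp after the start, and the last, in no list, at 7000 to 7910 bp. Neat1 had peaks in 4, 8, 14 and 14 lists. Btg1, an antiproliferative gene, showed a like series with 11, 1 and 1 lists, of which the last 2 lay past its 3′ end and were in 0 B cell lists. Other genes with 3 peaks were Tex14, Trim7, Dad1, Ezr, Rad51b, Abt1, Hvcn1 and Arhgap25. Of these, Dad1 had all 3 peaks in 14 lists, and Ezr, which encodes the cytoskeletal linker ezrin, had 13, 13 and 14.

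**Figure D5:**
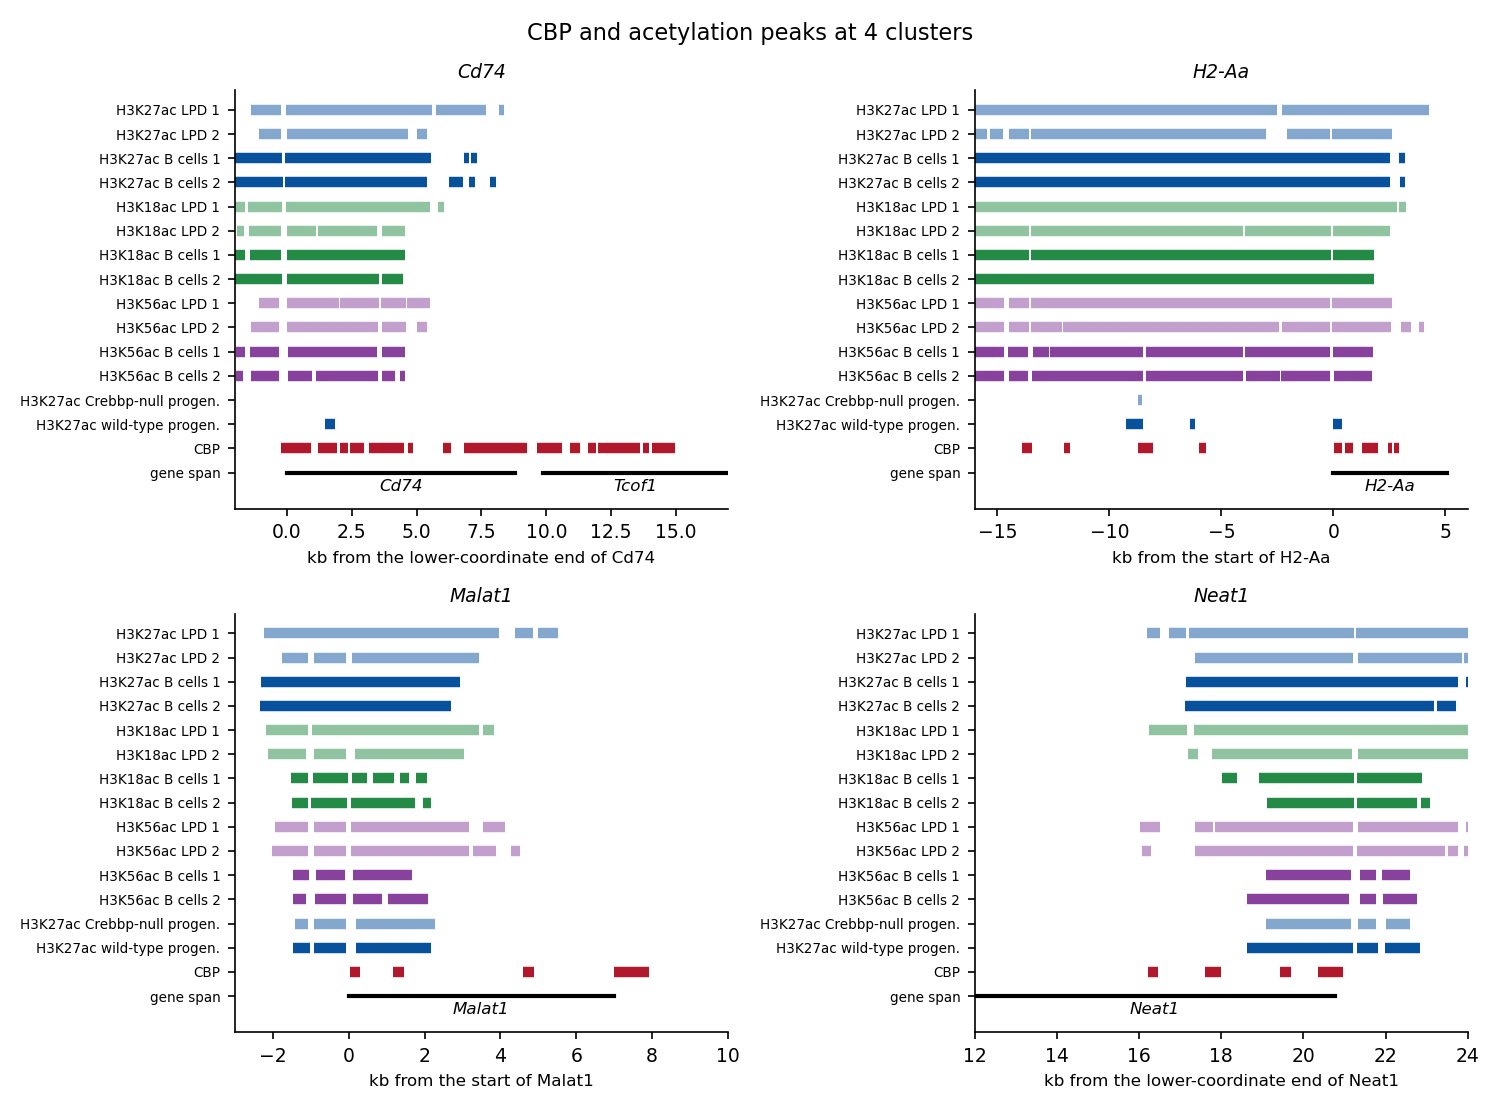
Each bar is a peak of the list named at the left, at Cd74 with Tcof1, H2-Aa, Malat1 and Neat1, on an axis in kb from the gene's start, or from the lower-coordinate end of the span where the strand was not at hand, and CBP peaks at gene ends are drawn too. No acetylation peak lies over the CBP peaks of Tcof1 or over the last CBP peak of Malat1, at 7000 to 7910 bp.

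The widest member was 3533 bp wide, on the ribosomal RNA-related gene Rn18s-rs5 of chromosome 17 (39843230 to 39846762), and was in 1 LPD and 2 B cell lists. A neighbour of 846 bp there had the same lists. Repeated sequence of this kind can collect reads from many copies, which was not tested. Near Trim7 a peak of 822 bp on 3 tRNA genes lost H3K27ac, which was absent in LPD and measured 1.51 and 1.81 kb in B cells.

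Of the 13 peaks of B cell transcription factor genes, 9 kept H3K27ac and 3 lost it (Irf8, Ebf1 and Runx1), against 339 and 62 of all 564 members. Irf4 (chromosome 13, 30761432 to 30761769) kept all 3 marks, with H3K27ac peaks of 6.47 and 3.37 kb in LPD and 11.4 and 10.3 kb in B cells, neither LPD value reaching the B cell ones. Foxp1 had 2 kept peaks, in 14 and 12 lists, with H3K27ac of 3.53 and 2.68 kb in LPD and 10.1 and 10.06 kb in B cells at the first. Ets1 kept H3K27ac at 2 peaks, in 14 and 12 lists, as did Mef2c, in 12 and 11. Foxo1 had 1 peak in all 14. Ebf1, needed for B cell commitment, had 1 peak in 13 lists and a second that lost H3K27ac, with none in LPD and 4.29 and 4.43 kb in B cells. Runx1 had 1 peak that lost H3K27ac and H3K56ac, and both progenitor lists had it, with 0.319 kb in Crebbp-null and 0.528 kb in wild-type progenitors. Pax5, the B cell commitment factor gene, had 1 peak with H3K27ac of 9.17 kb in LPD replicate 1 and none in replicate 2, and 10.2 and 11.0 kb in B cells.

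None of the 8 peaks of B cell surface and receptor signalling genes lost a mark, 5 kept H3K27ac, and 2 gained another mark. Of all 564 members, 76 lost a mark, 339 kept H3K27ac and 43 gained a mark. With 8 peaks, the absence of losses does not set these genes apart, and no test was made. Blk, a B cell Src-family kinase gene, had a peak in 13 lists, with H3K27ac of 9.97 and 7.26 kb in LPD and 10.1 and 10.3 kb in B cells. Syk, the kinase gene of the B cell receptor, had 2 peaks, in 14 and 9 lists, and Lyn 2, in 13 and 5. Btk had 1 in 5 lists, with H3K27ac of 0.5 kb in LPD replicate 1 and none in replicate 2, and 2.01 and 2.05 kb in B cells. Cd22, an inhibitory receptor gene, had 1 peak that kept H3K27ac and gained H3K18ac. Among receptors, Tnfrsf13b had a peak in 14 lists and Tnfrsf13c, the BAFF receptor gene, in 13, while Il4ra, the interleukin-4 receptor gene, lost H3K27ac (none in LPD, 0.758 and 0.407 kb in B cells). Cxcr4, a homing receptor gene, had a peak in 9 lists with H3K27ac of 0.22 kb in LPD replicate 1, none in replicate 2, and 4.33 and 5.36 kb in B cells. Traf3 had a peak in all 14.

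Most members overlapped wide acetylated regions. By at least 1 bp, 492 of the 564 met a merged H3K27ac region of the B cell lists. These were 457 distinct regions, at any distance from gene ends, with a median width of 2.65 kb and a maximum of 25 kb. Of the 492 peaks, 303 (61.6%) had their centre in the central 50% of the region, where evenly spread centres would put about 50%. By another rule, merged B cell H3K27ac regions that were themselves more than 1 kb from every gene end were counted. Of these, 442 of 20119 (2.20%) met a CBP peak of any kind.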

How the data were processed

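Chromatin immunoprecipitation lists of 15 samples were used, and 15 other samples of the series were not used here. Each deposited file is the authors' list of peak positions (chromosome, start, end) on mm10, with no score, signal or depth. The tools named, per the submitters' processing notes, are MACS2 2.0.10, bedtools, Bowtie2 2.1.0 and Picard, and the settings are not given in the sources used here. Separate files per sample hold the replicates, so a list was taken as 1 library.

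Everything else was computed from these positions with SciPy 1.17.1, pandas 2.3.3 and NumPy 2.4.6 under Python 3.11.15, with Matplotlib 3.10.9 for the plots. Gene spans, biotypes and start windows are RefSeq on GRCm38.p6. A peak was assigned to every coding gene that it overlapped or lay within 1 kb of, and otherwise to the nearest within 50 kb. Of the 14 fixed gene lists all 180 genes matched a symbol. Merged regions are unions of the 4 LPD and B cell lists of a mark. Where regions of the B cell lists are named, they are unions of both B cell H3K27ac lists, and in progenitors they are unions of both progenitor lists. LPD and B cells were compared by an exact two-sided permutation test over lists, which cannot go below p = 0.33. The overlap, call, distance and cluster steps were tested on simulated lists.

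The members, lists and tests were chosen with earlier results of these data known. Genes named are those of the 10 widest peaks, the 10 genes with most peaks, the largest clusters, up to 4 genes per list, the 10 lost and 10 gained peaks called in the most marks, and the 10 widest peaks in no list and in every list. Any further gene was chosen after its values were seen. Motifs were planned for peak sequences and were searched in start windows only. Alternatives tried were a larger distance from gene ends, stricter and looser overlap, lists of equal length, each list left out, other cluster gaps and a replicate block.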

Additional observations from a re-analysis of the deposited data

Results flagged for a closer look

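CBP peaks also lay outside the chromosomes used in the comparisons. The mitochondrial genome held 7 peaks of the B cell CBP list, with a widest of 481 bp, and none of the 14 acetylation lists had a peak there. The unplaced sequence Un_GL456370 held 6 CBP peaks, with a widest of 420 bp, again with no acetylation peak in any of the 14 lists. Sequences with more than 3 CBP peaks were flagged, which is a fixed limit and not a test. No control list was analysed here for either sequence.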

How the results depend on the processing

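Of 162 alternative values over 19 results, 3 reversed and 25 counts or untested values moved, and no test could pass its threshold. Of 61 LPD minus B cell differences that kept their sign, 13 changed in size by over 1.5 times. Among these, the H3K27ac share difference of -16.8 points was -10.7 with list peaks within 1 kb counted and -9.31 without LPD replicate 2 (range -24.4 to -9.31 over the lists left out), that of H3K18ac was -6.38 with lists of equal length, and that of H3K56ac, 4.79, was 1.60 within 1 kb. The replicate block left the H3K27ac difference at -16.8 points and the other differences as they were, with an exact p of 0.5 at best, and changed no call. Deviations of same-numbered lists correlated at -0.04 for H3K27ac, -0.53 for H3K18ac and -0.20 for H3K56ac, so the numbers were not taken as pairs, and the crossed pairing, added after seeing the data, gave 0 calls as well. The H3K18ac share difference reversed to 5.76 points without LPD replicate 2 (range -7.89 to 5.76 over the lists left out), its length difference to -16.8 kb without LPD replicate 1 (-16.8 to 335 kb), and the H3K56ac share difference to -0.44 points with lists of equal length. Leaving out each list gave 63 to 134 peaks lost and 1 to 12 gained for H3K27ac, 25 to 54 lost and 17 to 51 gained for H3K18ac, and 22 to 35 lost and 43 to 54 gained for H3K56ac. Beyond 5 kb from gene ends, gains were 0 for H3K27ac and 9 for H3K18ac, and clusters 28. With at least 50% of the CBP peak covered, H3K27ac was gained at 2 peaks, H3K18ac kept at 207, H3K56ac lost at 13 and kept at 138, and 104 peaks were in no list and 82 in every list. Lists of equal length gave 44 H3K18ac and 32 H3K56ac losses. With list peaks within 1 kb counted, 236 peaks were in every list. The Crebbp-null minus wild-type progenitor difference, -11.2 points, was -6.56 with 50% coverage, -13.1 within 1 kb, -8.33 with equal lengths and -12.6 away from the ends of non-coding genes too, a choice made after seeing the data. Causes of these moves were not tested, apart from fewer peaks beyond 5 kb (418) and away from all annotated ends (467). Depth is unknown, the CBP list is 1 library, and a peak below the caller's limit counts as absent.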
